A study of Homo sapiens with 9 samples.

Results

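The DNA replication genes are a set of 42 genes that encode the proteins licensing origins, unwinding and copying DNA and packing the new strands into chromatin. They were taken as a fixed list of gene symbols, and all 42 are among the 16612 genes of the count table. RNA was sequenced from HNT34, an established human acute myeloid leukemia (AML) cell line with high expression of EVI1, the transcription factor encoded by MECOM. HNT34 cells were transduced with a lentiviral vector that carries a red fluorescent protein and a puromycin resistance gene together with either a non-targeting shRNA (NT) or an EVI1-directed shRNA, sh#16 or sh#87. They were harvested 3 days after selection. Each group has 3 libraries of polyA-selected RNA. The libraries grouped here as sh#87 by their titles carry the shRNA number 18 in another label. Nothing states that the libraries of a group came from separate cultures, so the p-values measure only the spread between these libraries. The question was how each replication gene stood after either knockdown and where the EVI1 shRNAs differed from each other.

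DNA replication starts where the origin recognition complex (ORC) marks the DNA and where CDC6 and CDT1 help it to load the MCM2-7 ring, the motor of the replicative helicase. The kinase DDK, made of CDC7 and DBF4, together with CDC45 and the GINS complex turns loaded rings into active helicases. Polymerase alpha-primase lays primers, polymerases epsilon and delta extend them, the RFC complex places the sliding clamp PCNA, and FEN1 and LIG1 finish the lagging strand. RPA covers exposed strands, and CAF-1 puts histones on the copied DNA. Many of these genes are known targets of E2F transcription factors, which link their expression to the cell cycle, and subunits of a complex work together in fixed proportions.

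The promoters of the replication genes carried E2F-type motifs more often than promoters at large, as a description. Promoters reach from 250 bases before to 50 bases after a gene's start (GRCh38.p14, RefSeq), and 35 of the 42 genes had at least 1 in the reference table. An E2F-type motif (TTTCCCGC, TTTCGCGC, TTTGCCGC or TTTGGCGC, on either strand) was present for 18 of these 35 genes (51.4%), beside 3.99% of all 27305 genes with a promoter in the table. CCAAT was found for 20 of the 35 genes (57.1%), beside 39.7% of all genes, CACGTG for 5 (14.3%), beside 8.77%, and TTTGAA for 1 (2.86%), beside 18.2%. The motifs were sought on both strands, and matches that overlap each other were counted separately. Of the genes that were lower with sh#87 than in NT, 8 of the 12 with a promoter held an E2F-type motif, as did 6 of the 16 that were higher and 4 of the 7 that were not called. CCAAT was held by 5 of the 12 lower, 10 of the 16 higher and 5 of the 7 not called. These differences between calls were not tested.

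The following sequences are the 250 bases before the start of the 3 lowest and the 2 highest genes of the direct comparison of the shRNAs, among those called there and held in the promoter table. They are shown 5′ to 3′ because these genes hold the largest called differences between the knockdowns, and capitals mark the E2F-type and CCAAT matches.
RFC3: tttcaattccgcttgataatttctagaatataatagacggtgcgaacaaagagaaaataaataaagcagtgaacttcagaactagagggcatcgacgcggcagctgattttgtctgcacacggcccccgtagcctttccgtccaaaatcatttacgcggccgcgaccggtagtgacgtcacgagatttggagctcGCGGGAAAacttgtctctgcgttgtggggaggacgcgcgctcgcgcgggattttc
PRIM1: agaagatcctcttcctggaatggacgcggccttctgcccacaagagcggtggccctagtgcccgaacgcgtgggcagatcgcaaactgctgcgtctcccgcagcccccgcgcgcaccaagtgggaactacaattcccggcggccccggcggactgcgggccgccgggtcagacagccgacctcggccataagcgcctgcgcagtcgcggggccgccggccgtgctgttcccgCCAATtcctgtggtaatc
MCM6: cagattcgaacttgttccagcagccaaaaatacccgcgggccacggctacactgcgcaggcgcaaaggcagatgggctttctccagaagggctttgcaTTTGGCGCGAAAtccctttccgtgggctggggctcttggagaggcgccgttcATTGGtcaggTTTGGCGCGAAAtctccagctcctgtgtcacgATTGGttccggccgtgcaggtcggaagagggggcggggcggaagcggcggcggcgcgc
ORC6: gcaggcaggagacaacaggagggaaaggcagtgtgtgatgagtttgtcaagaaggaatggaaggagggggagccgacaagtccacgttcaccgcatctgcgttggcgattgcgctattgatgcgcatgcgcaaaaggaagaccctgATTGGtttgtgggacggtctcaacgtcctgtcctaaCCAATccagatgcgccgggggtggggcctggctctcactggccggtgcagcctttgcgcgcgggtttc
POLE: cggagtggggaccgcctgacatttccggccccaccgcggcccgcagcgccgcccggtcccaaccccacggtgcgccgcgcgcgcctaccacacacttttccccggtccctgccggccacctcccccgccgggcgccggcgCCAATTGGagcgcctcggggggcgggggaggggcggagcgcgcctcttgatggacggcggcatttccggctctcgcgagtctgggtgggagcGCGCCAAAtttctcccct
The regions on GRCh38.p14 are chr13:33817899-33818148 on the plus strand for RFC3, chr12:56752324-56752573 on the minus strand for PRIM1, chr2:135876444-135876693 on the minus strand for MCM6, chr16:46689409-46689658 on the plus strand for ORC6 and chr12:132687343-132687592 on the minus strand for POLE. The MCM6 promoter held TTTGGCGC followed by an overlapping match on the opposite strand at 2 places, with first bases at -152 and -90 relative to the start, and RFC3 and POLE held 1 E2F-type match each, at -55 and -18. In PRIM1 and ORC6 no E2F-type match stood in this window, while CCAAT stood 1 time in PRIM1 and 2 times in ORC6.

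The libraries held between 17096170 and 43502389 counts, and a replication gene had between 152 (GINS3) and 15325 (MCM4) counts in a library. Levels are given as CPM, a gene's counts divided by the library's total after TMM normalization and scaled to the same total in every library, and genes were called at an adjusted p of at most 0.01 in edgeR's quasi-likelihood test with Benjamini-Hochberg adjustment over 16312 genes, without a fold threshold. MECOM, the gene that the shRNAs target, stood at 571, 504 and 440.5 CPM in the NT libraries, 145, 143 and 145 CPM with sh#16 and 109, 107 and 106 CPM with sh#87. It fell with sh#16 (log2 fold change -1.81 ± 0.091 (SE), adjusted p = 3.33e-07) and with sh#87 (log2 fold change -2.23 ± 0.092 (SE), adjusted p = 6.91e-08), and no knockdown library reached the lowest NT library. Of 7 AML cell line markers 6 are in the table, with a summed level of 2005 to 2121 CPM in NT, 629 to 637 CPM with sh#16 and 352 to 357 CPM with sh#87. Of the markers of other cell types, COL1A1, a fibroblast collagen gene, reached at most 0.172 CPM in NT and at least 25.9 CPM in every knockdown library. The part of these markers in the results below was not tested.

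The NT libraries differed from each other much more than the knockdown libraries did. The biological coefficient of variation over all genes was 24.9% in NT, 3.75% in sh#16 and 6.97% in sh#87, and the SD of log2 CPM exceeded 0.2 for 16 of the 42 replication genes in NT and for 0 in either knockdown. The test used 1 spread per gene for all 3 groups. For genes that vary most in NT, the SE and p-values against NT therefore understate the NT spread. CDT1, which brings the MCM ring to origins, spread most, and its 41.6, 79.1 and 136 CPM in NT replicates 1, 2 and 3 compare with 155, 169 and 164 CPM with sh#16. The difference between NT replicates 3 and 1 followed the GC content of the transcripts. Among the 11 replication genes with over 55% GC, all 11 were higher in NT replicate 3 (median log2 difference 0.68), as were 5 of the 16 with under 45% GC (median -0.23). Over the 42 genes, Pearson's r between GC content and this difference was 0.74 and Spearman's rho 0.67, as a description over genes that share 2 libraries. Mitochondrially encoded genes took 15.9%, 11.5% and 4.69% of the counts in NT replicates 1, 2 and 3, between 2.69% and 2.88% with sh#16 and between 4.62% and 5.97% with sh#87. Because of this, values of the 42 replication genes against NT are given below also after a correction for transcript length and GC content. The correction was chosen after seeing the data. Its values are given wherever it ends a call or turns a direction, except where it ends the call of RFC1 with sh#87.

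**Figure D1:**
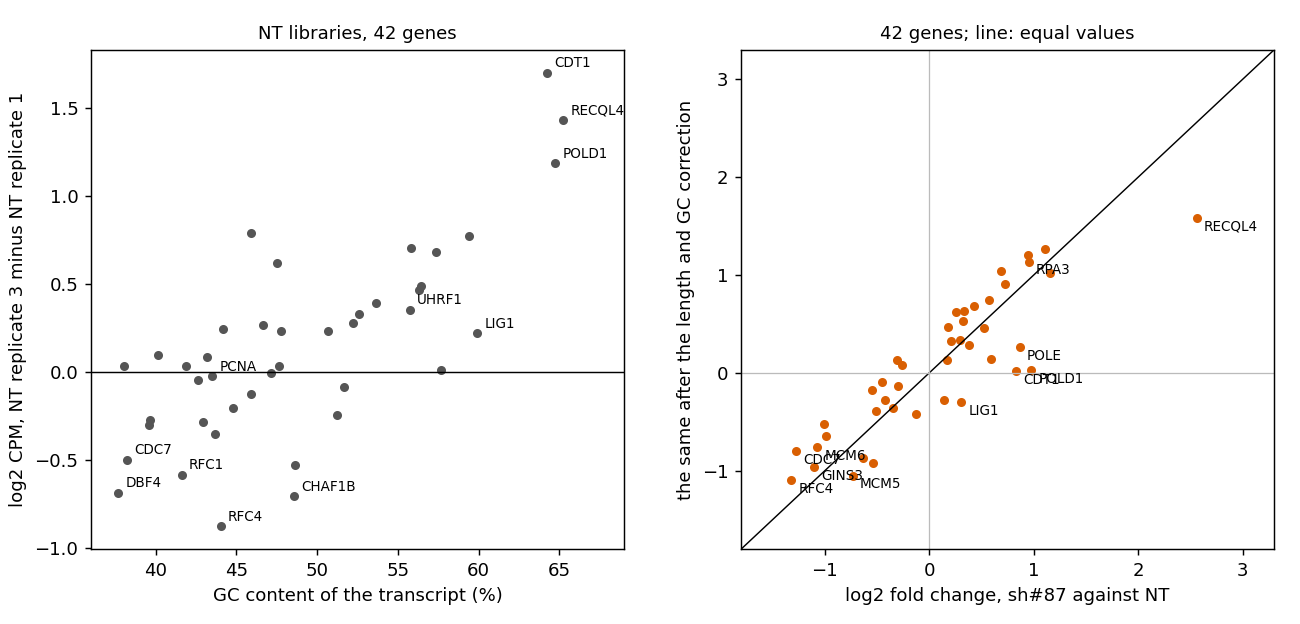
Left, the log2 difference between NT replicates 3 and 1 (log2 CPM) for each of the 42 replication genes against the GC content of its transcript in percent. Right, the log2 fold change with sh#87 against NT before (x axis) and after (y axis) the length and GC correction, with a line at equal values. CDT1, RECQL4 and POLD1, with the highest GC content, lie highest on the left, and on the right POLD1 and CDT1 move close to 0 while RECQL4 stays above 1.

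After knockdown of EVI1 the replication genes did not move as a block. With sh#16, 15 of the 42 genes rose (35.7%) and 8 fell (19.0%), where 29.8% of all genes tested rose and 30.2% fell. With sh#87, 19 rose (45.2%) and 16 fell (38.1%), where 34.3% of all genes tested rose and 33.6% fell. The median log2 fold change of the 42 genes was 0.18 with sh#16 and 0.19 with sh#87, beside 0.040 and 0.035 over all genes tested. The shares of the replication genes were not tested against those of all genes. After the length and GC correction 17 of the 42 genes rose and 12 fell with each shRNA. Of all genes, 31.4% then rose and 36.8% fell with sh#16, and 34.6% rose and 38.8% fell with sh#87. Under upper-quartile scaling, which raised the median of all genes to 0.14 and 0.15, 19 of the 42 genes rose and 6 fell with sh#16. With sh#87 20 rose and 11 fell. Of all genes, 34% rose and 26.6% fell with sh#16 under this scaling, and 37.7% rose and 29.8% fell with sh#87. Without any 1 of the sh#16 libraries 5 of the 42 genes fell with sh#16, beside 25.1% to 25.7% of all genes. Without NT replicate 3, 12 of the 42 genes did, beside 34.2% of all genes. A log2 change of 1 or more in size was called for 2 with sh#16 and for 8 with sh#87, or 4.76% and 19.0%, where 34% and 43.8% of all genes passed the same rule. In bulk RNA, fewer cells of a type and less RNA per cell cannot be told apart.

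Both comparisons use the same NT libraries, so their calls are not independent of each other. No gene was called in opposite directions, though after the length and GC correction POLE was. Called higher with each shRNA were 15 genes: ORC6, CDC6, GINS1, GINS4, MCM10, RECQL4, POLA2, PRIM2, PCNA, RFC2, RFC5, FEN1, RPA1, RPA3 and CHAF1A. Called lower with each were 8: MCM3, MCM5, MCM6, DBF4, CDC7, PRIM1, POLD3 and RFC4. Of all genes tested, 26.7% were called higher and 27.5% lower with each shRNA, beside 35.7% and 19.0% of the replication genes. Called only with sh#87, though the difference between the shRNAs is a separate test given further on, were ORC1, POLD1, POLE and LIG1 (higher) and MCM2, MCM4, MCM7, GINS3, POLE2, RFC1, RFC3 and RPA2 (lower). The other 7 genes, CDT1, CDC45, GINS2, POLA1, POLD2, CHAF1B and UHRF1, were called with neither. Over 21 other fits, with other tools, normalizations, filters, corrections or libraries left out, 14 genes were called in the same direction against NT with both shRNAs each time: CDC6, GINS4, RECQL4, POLA2, PRIM2, PCNA, RFC5, FEN1 and RPA1 as higher and MCM5, MCM6, DBF4, CDC7 and PRIM1 as lower. Calls lost when 1 library was left out were those of MCM3, RFC4 (each without NT replicate 2 or any 1 sh#16 library) and POLD3 (without any 1 sh#16 library) with sh#16, where the adjusted p reached 0.0162, 0.0161 and 0.016. With sh#87 they were those of POLD1 (without NT replicate 2 or any sh#87 library, adjusted p up to 0.0175), POLD3 (without NT replicate 2 or sh#87 replicate 1 or 3, up to 0.0196), RFC3 (without sh#87 replicate 2, 0.0139), RPA3 (without NT replicate 2, 0.0107) and LIG1 (in 7 of 9 such fits, up to 0.0302), beside those given with their genes.

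**Figure D2:**
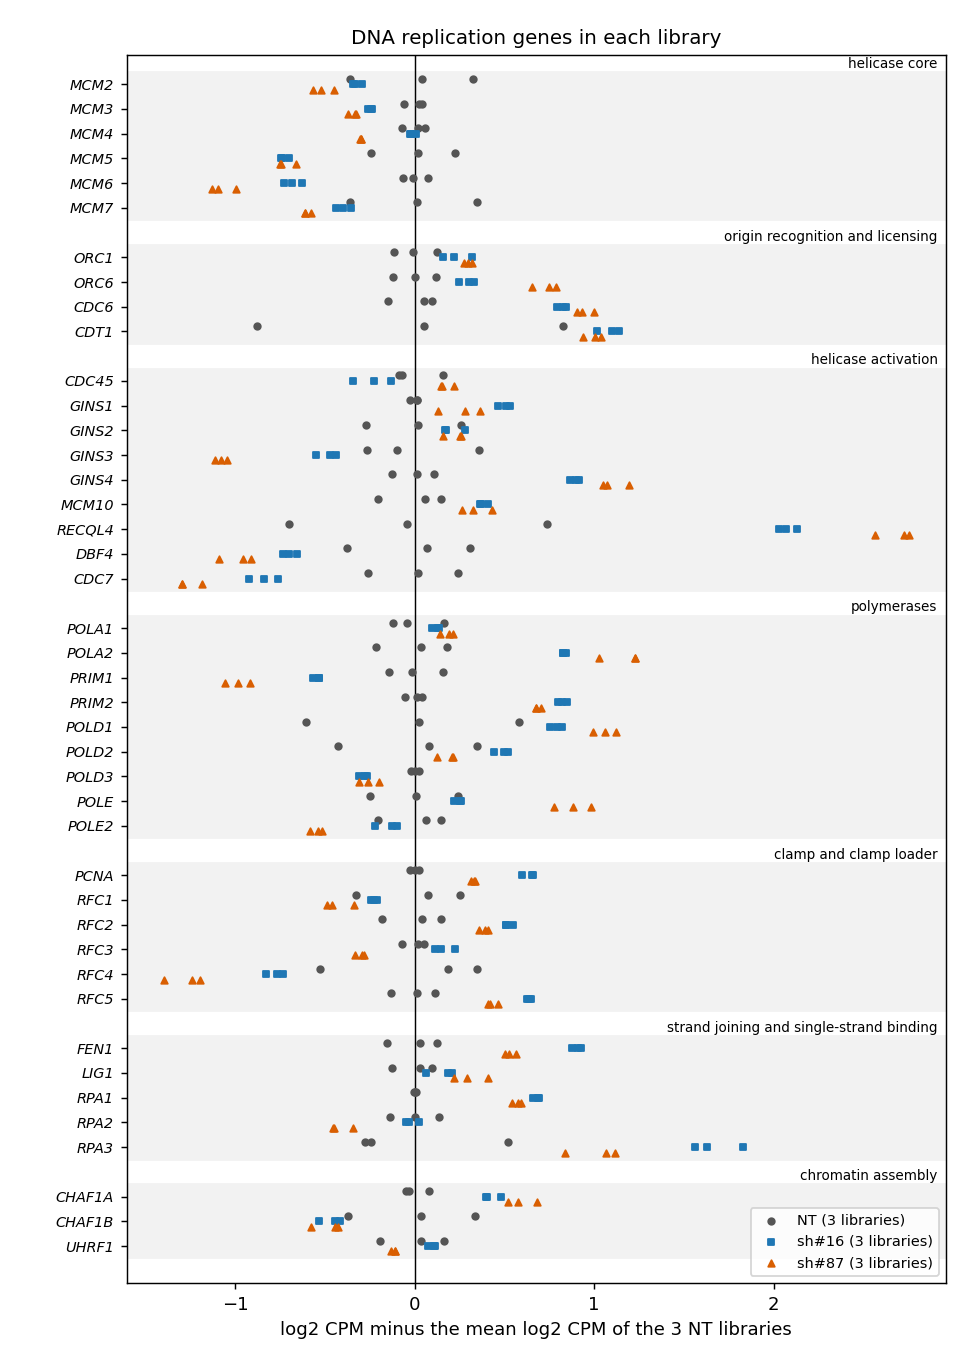
Each point is 1 library: log2 CPM minus the mean log2 CPM of the 3 NT libraries (x axis) for each of the 42 replication genes (y axis, by role), with NT in grey circles, sh#16 in blue squares and sh#87 in orange triangles. RECQL4 lies farthest to the right, RFC4, CDC7 and GINS3 lie far to the left, and the knockdown libraries lie closer together than the NT libraries for most genes.

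All 6 genes of the MCM2-7 ring, the helicase core, were lower with sh#87 than in NT, and their log2 fold changes stayed below 0 in all 21 other fits. With sh#16, MCM3, MCM5 and MCM6 were lower, and MCM2 and MCM7 had log2 fold changes of -0.35 and -0.43 with adjusted p = 0.0496 and 0.0246. MCM6 stood at 174, 167 and 184 CPM in the NT libraries, 109, 106 and 113 CPM with sh#16 and 87.7, 80.0 and 81.8 CPM with sh#87. Its levels fell in steps without overlap between any of the groups (log2 fold change -0.68 ± 0.063 (SE), adjusted p = 1.36e-05 with sh#16; log2 fold change -1.07 ± 0.064 (SE), adjusted p = 5.42e-07 with sh#87). MCM5 stood at 258, 308 and 356 CPM in the NT libraries, 183, 188 and 182 CPM with sh#16 and 192, 181 and 182 CPM with sh#87. It was lower with both (log2 fold change -0.74 ± 0.10 (SE), adjusted p = 0.000188 with sh#16; log2 fold change -0.73 ± 0.10 (SE), adjusted p = 0.000162 with sh#87), and the knockdown groups overlapped. The other log2 fold changes with sh#87 were -0.54 for MCM2, -0.34 for MCM3, -0.30 for MCM4 and -0.63 for MCM7. After the length and GC correction MCM4 no longer passed with sh#87 (log2 fold change -0.14, adjusted p = 0.0377), while MCM2 and MCM7 passed also with sh#16 (-0.69 and -0.66). In fits without 1 library MCM2 lost its call with sh#87 in 7 of 9 (adjusted p up to 0.0275) and MCM7 in 4 of 9 (up to 0.0135).

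Of the 4 genes of origin recognition and licensing, 2 were higher with sh#16 and 3 with sh#87, and 0 were lower. CDC6, the loader of the MCM ring, rose with both shRNAs, with log2 fold changes of 0.82 (adjusted p = 1.02e-05) with sh#16 and 0.94 (adjusted p = 2.80e-06) with sh#87. ORC6, a small subunit of ORC, stood at 29, 31.4 and 26.7 CPM in the NT libraries, 34.4, 35.8 and 36.4 CPM with sh#16 and 45.6, 48.6 and 50.0 CPM with sh#87. The groups followed each other without overlap, and ORC6 rose with sh#16 (log2 fold change 0.29 ± 0.080 (SE), adjusted p = 0.00924) and more with sh#87 (log2 fold change 0.73 ± 0.080 (SE), adjusted p = 2.87e-05), though the sh#16 call was lost in 8 of 9 fits without 1 library (adjusted p up to 0.0351). ORC1, the ATPase subunit of ORC, had log2 fold changes of 0.23 (adjusted p = 0.0251) and 0.29 (adjusted p = 0.00737), and also lost its sh#87 call in 8 of 9 such fits. CDT1 levels were 155, 169 and 164 CPM with sh#16 and 157, 153 and 147 CPM with sh#87, above all NT libraries, and the log2 fold changes of 0.92 and 0.83 did not pass (adjusted p = 0.0296 and 0.0417). After the correction they were 0.20 (adjusted p = 0.219) and 0.018 (adjusted p = 0.912), while ORC1 passed also with sh#16 (0.24, adjusted p = 0.00436).

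The helicase activation genes held the largest rise with each shRNA, in RECQL4, and the largest fall with sh#16, in CDC7. RECQL4, a helicase of the RecQ family with a role in origin firing, stood at 18.1, 28.6 and 49.1 CPM in the NT libraries, 120.3, 129 and 124 CPM with sh#16 and 195, 198 and 174 CPM with sh#87. Every knockdown library lay above every NT library, and the log2 fold changes were 1.95 ± 0.29 (SE, adjusted p = 0.000247) and 2.56 ± 0.29 (SE, adjusted p = 3.72e-05). With 65.3% GC, RECQL4 is the replication gene with the highest GC content, and after the correction its log2 fold change was 1.11 with sh#16 and 1.58 with sh#87. CDC7, the catalytic subunit of DDK, stood at 77.7, 66.7 and 55.1 CPM in the NT libraries, 38.8, 36.9 and 34.7 CPM with sh#16 and 26.8, 26.8 and 29 CPM with sh#87. The groups did not overlap and fell in order (log2 fold change -0.85 ± 0.12 (SE), adjusted p = 0.000175 with sh#16; log2 fold change -1.27 ± 0.12 (SE), adjusted p = 1.06e-05 with sh#87). Its activator DBF4 moved alongside it, with log2 fold changes of -0.72 (adjusted p = 0.0019) and -1.01 (adjusted p = 0.000206).

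Within GINS, the complex that joins CDC45 to the MCM ring, the subunits went opposite ways. GINS3 stood at 13.6, 15.3 and 20.9 CPM in the NT libraries, 12, 11.1 and 11.8 CPM with sh#16 and 7.9, 7.55 and 7.73 CPM with sh#87. It fell with sh#87 (log2 fold change -1.11 ± 0.15 (SE), adjusted p = 0.000124), and the log2 fold change with sh#16 was -0.51 (adjusted p = 0.0114). GINS4 stood at 30.7, 33.8 and 36.1 CPM in the NT libraries, 63.1, 60.9 and 62.3 CPM with sh#16 and 76.6, 70.3 and 69.2 CPM with sh#87, with all knockdown libraries far above NT (log2 fold change 0.89 ± 0.077 (SE), adjusted p = 8.76e-06 with sh#16; log2 fold change 1.10 ± 0.077 (SE), adjusted p = 1.51e-06 with sh#87). GINS1 rose by 0.50 and 0.26 on the log2 scale, the latter call lost in 8 of 9 fits without 1 library (adjusted p up to 0.0403), and GINS2 was called with neither (0.19 and 0.21). MCM10, a scaffold that starts the active helicase, rose by 0.37 and 0.34, and lost these calls in 4 and 7 of 9 such fits (adjusted p up to 0.0185 and 0.0306). CDC45 was not called against NT (-0.24 and 0.17).

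The polymerase genes split in the same way. PRIM1, which makes the RNA primer, stood at 94.5, 83.7 and 76.8 CPM in the NT libraries, 58.4, 57.1 and 58.6 CPM with sh#16 and 44.8, 40.8 and 42.9 CPM with sh#87. Its groups fell in order without overlap (log2 fold change -0.55 ± 0.083 (SE), adjusted p = 0.000283 with sh#16; log2 fold change -0.99 ± 0.084 (SE), adjusted p = 5.05e-06 with sh#87). Exons of PRIM1 share 139 bases with NACA on the same strand, a gene with 70687 counts over the 9 libraries beside 14430 for PRIM1, so counts could be exchanged between them. POLA2, a regulatory subunit of the same complex, stood at 32.5, 38.5 and 42.7 CPM in the NT libraries, 67.5, 66.7 and 66.7 CPM with sh#16 and 76.7, 88.2 and 88.1 CPM with sh#87. It rose with both (log2 fold change 0.82 ± 0.10 (SE), adjusted p = 9.00e-05 with sh#16; log2 fold change 1.15 ± 0.10 (SE), adjusted p = 7.34e-06 with sh#87). Exons of POLA2 share 2012 bases on the same strand with ENSG00000285816, which is not in the table, so POLA2 counts are less certain. PRIM2, the large primase subunit, rose by 0.82 and 0.68, and the catalytic POLA1 had 0.11 and 0.18 and was not called. After the correction POLA1 was higher with both (0.36, adjusted p = 7.13e-05, with sh#16; 0.47, adjusted p = 7.47e-06, with sh#87). PRIM2 has a paralogous pseudogene, PRIM2BP, with 640 exonic bases on the same strand that is not in the table, so its counts are less certain.

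POLE, the catalytic subunit of the leading-strand polymerase, stood at 144, 172 and 202 CPM in the NT libraries, 205, 204 and 199 CPM with sh#16 and 293, 315 and 338 CPM with sh#87. The sh#16 libraries reached the highest NT library, the sh#87 libraries stood above all others, and POLE was called with sh#87 alone (log2 fold change 0.87 ± 0.11 (SE), adjusted p = 9.39e-05; with sh#16 0.23, adjusted p = 0.0986). After the correction both passed, in opposite directions, with -0.25 with sh#16 (adjusted p = 0.00365) and 0.26 with sh#87 (adjusted p = 0.00255). Its partner POLE2 had log2 fold changes of -0.15 (not called) and -0.55 (adjusted p = 0.000768), and after the correction -0.17 with sh#87 (adjusted p = 0.0733). In polymerase delta, POLD1 had 0.71 (not called) and 0.98 (adjusted p = 0.00402), POLD2 had 0.45 and 0.15 (not called), and POLD3 fell by 0.28 and 0.26. The correction took the call from POLD1 (0.031, adjusted p = 0.676) and from POLD3 (-0.047 with sh#16 and 0.077 with sh#87), and made POLD2 lower with sh#87 (-0.28, adjusted p = 0.00162).

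PCNA, the sliding clamp, was steady in NT and higher after knockdown, at 151, 146 and 148 CPM in the NT libraries, 234, 224 and 234 CPM with sh#16 and 186, 187 and 184 CPM with sh#87. It rose with sh#16 (log2 fold change 0.64 ± 0.050 (SE), adjusted p = 4.94e-06) and less with sh#87 (log2 fold change 0.33 ± 0.050 (SE), adjusted p = 0.000267), and the groups did not overlap. Its loader RFC split: RFC4 stood at 96.1, 85.8 and 52.3 CPM in the NT libraries, 44.3, 45.5 and 42.6 CPM with sh#16 and 32.9, 28.7 and 31.9 CPM with sh#87. RFC4 fell in order (log2 fold change -0.82 ± 0.19 (SE), adjusted p = 0.00363 with sh#16; log2 fold change -1.32 ± 0.19 (SE), adjusted p = 0.000182 with sh#87), and with NT replicate 3, its lowest, as the sole NT library the sh#16 value was -0.24 (adjusted p = 0.0141). RFC2 stood at 51.1, 59.6 and 64.2 CPM in the NT libraries, 85, 82.5 and 82.7 CPM with sh#16 and 76.2, 74.4 and 77 CPM with sh#87, and rose with both (0.52, adjusted p = 0.000434; 0.38, adjusted p = 0.00238). RFC5 rose by 0.63 and 0.43. RFC1 had -0.25 (not called) and -0.45 (adjusted p = 0.00986, lost in 17 of 21 other fits, that with the correction among them). RFC3 had 0.16 (not called) and -0.30 (adjusted p = 0.00231), which the correction turned to 0.14 (adjusted p = 0.173). With sh#16 RFC3 was higher after the correction (0.43, adjusted p = 0.00128).

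Of the subunits of RPA, the single-strand binding complex, the small RPA3 rose most. It stood at 7.53, 7.72 and 13.1 CPM in the NT libraries, 28.2, 27 and 32.4 CPM with sh#16 and 19.1, 19.8 and 16.3 CPM with sh#87. The knockdown libraries lay above NT, with sh#16 above sh#87 (log2 fold change 1.62 ± 0.21 (SE), adjusted p = 9.80e-05 with sh#16; log2 fold change 0.95 ± 0.21 (SE), adjusted p = 0.00214 with sh#87). RPA1, the large subunit, rose by 0.68 and 0.57, and RPA2 had -0.023 (not called) and -0.42 (adjusted p = 0.000888; -0.28, adjusted p = 0.0122, after the correction). FEN1, the flap nuclease of the lagging strand, rose with both (log2 fold change 0.90 ± 0.075 (SE), adjusted p = 6.91e-06 with sh#16; log2 fold change 0.53 ± 0.075 (SE), adjusted p = 0.000156 with sh#87). LIG1, the ligase that seals the strand, stood at 52.6, 58.4 and 61.4 CPM in the NT libraries, 59.9, 66.1 and 65.2 CPM with sh#16 and 76.2, 70.3 and 66.9 CPM with sh#87, with a log2 fold change of 0.15 (not called) and 0.31 (adjusted p = 0.00734). The correction turned LIG1 to -0.39 (adjusted p = 0.00496) and -0.30 (adjusted p = 0.0186), so its direction depends on it.

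Among the chromatin assembly genes, CHAF1A, the large subunit of CAF-1, stood at 96.9, 106 and 97.8 CPM in the NT libraries, 132, 139.6 and 132 CPM with sh#16 and 160.7, 143 and 149.5 CPM with sh#87. It rose with both (0.43, adjusted p = 0.000333; 0.59, adjusted p = 3.01e-05), and after the correction with neither (0.025 and 0.15). CHAF1B had -0.49 and -0.51 and was not called (adjusted p = 0.0171 and 0.0131). UHRF1, which guides maintenance methylation to copied DNA, stood at 168, 197 and 215 CPM in the NT libraries, 207, 208 and 202 CPM with sh#16 and 175, 178 and 178 CPM with sh#87, and was called with neither (0.091 and -0.13). After the correction UHRF1 was lower with both (-0.17, adjusted p = 0.00439; -0.42, adjusted p = 7.31e-06).

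Compared directly, 7 of the 42 genes were lower (16.7%) and 3 higher (7.14%) with sh#87 than with sh#16, where 9.42% of all genes tested were lower and 8.29% higher. The median log2 fold change of the 42 genes was -0.14, beside -0.016 over all genes tested. Lower with sh#87 were RFC3, PRIM1, RPA2, MCM6, FEN1, PCNA and MCM4, and higher were POLE, ORC6 and CDC45. No replication gene was called with an absolute log2 fold change of 1 or more. MECOM was also lower with sh#87 than with sh#16 (log2 fold change -0.43 ± 0.089 (SE), adjusted p = 0.00661), and 5 of the 6 AML cell line markers in the table were called lower.

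RFC3, a subunit of the clamp loader, stood at 49.4, 48.2 and 52 CPM with sh#16 and 36.6, 35.3 and 36.4 CPM with sh#87, above and below the 45.2, 42.3 and 46.3 CPM of NT (log2 fold change -0.46 ± 0.066 (SE), adjusted p = 0.00122). It was the only one of the 10 whose call held in every fit without 1 library (adjusted p up to 0.00935), but not after the length and GC correction (-0.29, adjusted p = 0.024). For PRIM1 (log2 fold change -0.44 ± 0.083 (SE), adjusted p = 0.00443) and MCM6 (log2 fold change -0.39 ± 0.064 (SE), adjusted p = 0.00217), the values in each library given above did not overlap. FEN1 stood at 109, 112 and 113 CPM with sh#16 and 85.6, 84.3 and 87.9 CPM with sh#87, beside 53.5, 60.6 and 64.8 CPM in NT (log2 fold change -0.37 ± 0.074 (SE), adjusted p = 0.00569). FEN1 and PCNA (log2 fold change -0.31 ± 0.050 (SE), adjusted p = 0.00215) thus stood above NT with both shRNAs, and nearer to NT with sh#87. RPA2 stood at 77.5, 73.7 and 74.6 CPM with sh#16, within the NT range of 69.3, 76.2 and 83.7 CPM, and at 55.9, 55.5 and 59.9 CPM with sh#87 (log2 fold change -0.40 ± 0.078 (SE), adjusted p = 0.00526). MCM4 showed the same order, with 339, 331 and 332 CPM, 342, 321 and 351 CPM in NT and 273, 275 and 274 CPM (log2 fold change -0.29 ± 0.056 (SE), adjusted p = 0.00523).

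In the other direction, POLE (log2 fold change 0.64 ± 0.11 (SE), adjusted p = 0.00329) and ORC6 (log2 fold change 0.44 ± 0.080 (SE), adjusted p = 0.00371) were higher with sh#87, without overlap. CDC45, the third part of the active helicase, stood at 46.2, 43.4 and 40.0 CPM with sh#16 and 56.1, 56.4 and 59.1 CPM with sh#87, on either side of most of the 56.6, 48.3 and 47.8 CPM in NT (log2 fold change 0.40 ± 0.087 (SE), adjusted p = 0.00809). CDC45 was thereby called between the shRNAs and with neither of them against NT. Larger differences that did not pass belonged to RPA3 (-0.66, 95% interval -1.12 to -0.21, adjusted p = 0.0313), RECQL4 (0.61, interval -0.019 to 1.23, adjusted p = 0.122) and GINS3 (-0.59, interval -0.94 to -0.25, adjusted p = 0.017). Their libraries did not overlap between the shRNAs.

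The remaining differences between the shRNAs were smaller or less certain. Below 0 were RFC4 (-0.50), CDC7 (-0.42), POLE2 (-0.40), POLD2 (-0.30), DBF4 (-0.29), GINS1 (-0.24), UHRF1 (-0.22), RFC5 (-0.21), MCM7 (-0.20), RFC1 (-0.20), MCM2 (-0.19), PRIM2 (-0.14), RFC2 (-0.14), RPA1 (-0.11), MCM3 (-0.096), CDT1 (-0.092), MCM10 (-0.038) and CHAF1B (-0.019). Above 0 were POLA2 (0.33), POLD1 (0.27), GINS4 (0.21), CHAF1A (0.17), LIG1 (0.16), CDC6 (0.13), POLA1 (0.062), ORC1 (0.062), POLD3 (0.027), GINS2 (0.014) and MCM5 (0.010). All 5 RFC subunits and PCNA lay below 0. The widest of the 42 intervals was that of CDT1, from -0.83 to 0.64, which leaves the sign of its difference undetermined.

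The direct comparison shares its estimate of the spread with the NT libraries. With only the sh#16 and sh#87 libraries in the fit, 20 of the 42 genes were lower and 8 higher, where 24.6% and 23.5% of all genes were called, and the 10 genes above were among these 28. After the length and GC correction 6 were lower and 5 higher, where 13.9% of all genes were lower and 13.8% higher. It ended 4 of the 7 lower calls, those of RFC3, MCM6 (-0.30, adjusted p = 0.0108), PCNA (-0.22, adjusted p = 0.0173) and RPA2 (-0.32, adjusted p = 0.0149), and MCM2, POLD2 and UHRF1 were then called lower and POLA2 and RECQL4 higher. Before it, the log2 fold changes between the shRNAs followed GC content over the 42 genes with Pearson's r of 0.50 and Spearman's rho of 0.50, as a description over genes that share their libraries. Of the 10 genes called in the fit of all 9 libraries, all but RFC3 lost the call in 4 to 7 of the 9 fits without 1 library (adjusted p up to 0.0391, for CDC45). In fits without 1 of the 6 knockdown libraries the number of genes called fell to between 1 and 5, and without NT replicate 1, 2 or 3 it was 14, 7 and 17. Of all genes, 3.72% to 5.14% were lower and 2.88% to 4.79% higher without 1 knockdown library. Without NT replicate 1, 2 or 3, 14.4%, 6.98% and 16.8% of all genes were lower and 13.7%, 6.35% and 15.5% higher.

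**Figure D3:**
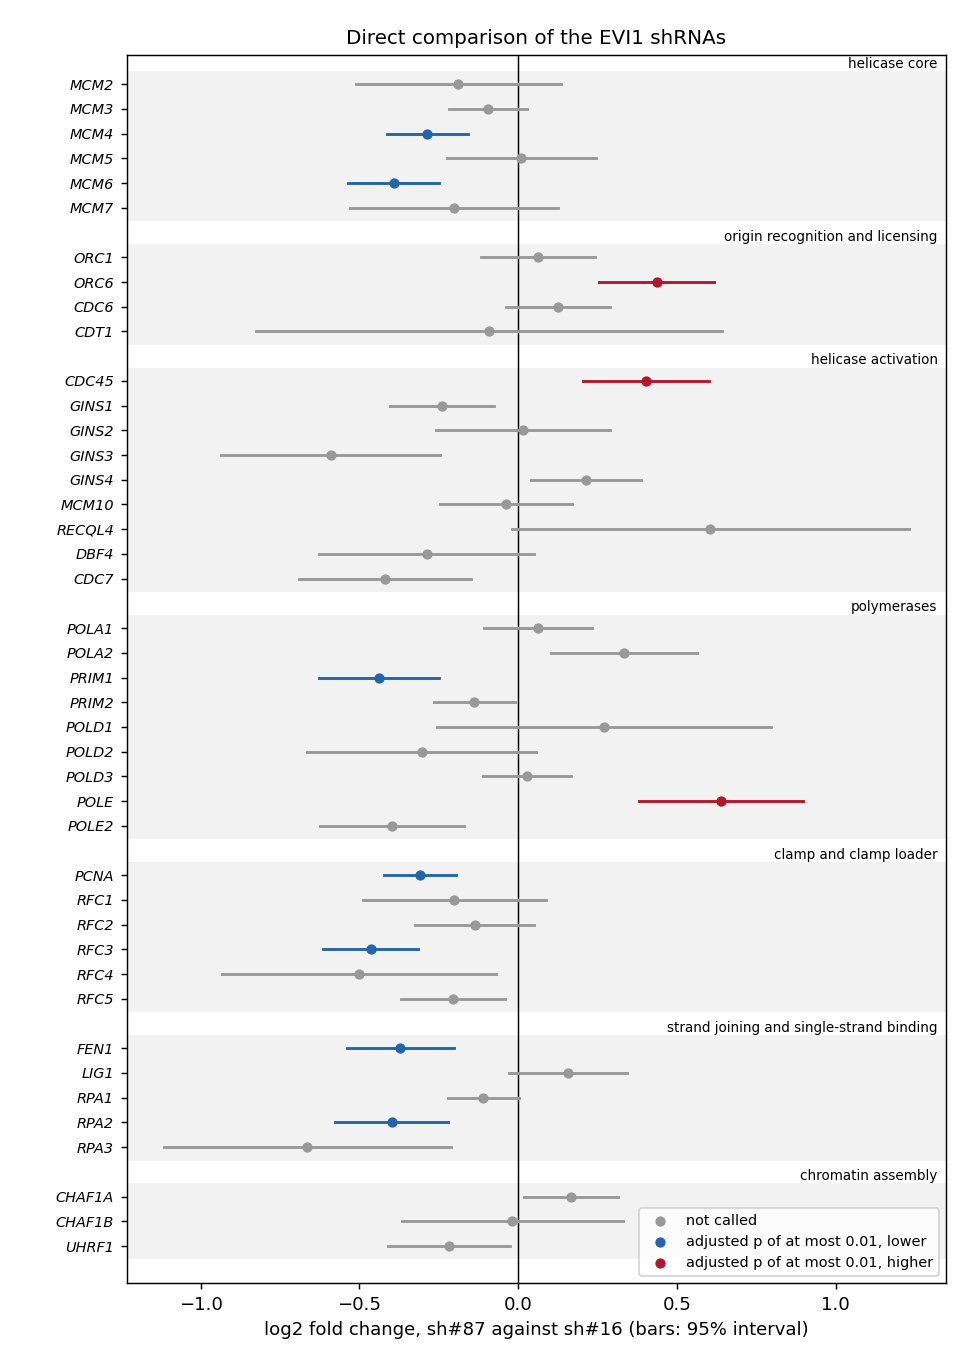
The log2 fold change with sh#87 against sh#16 (x axis) for each of the 42 replication genes (y axis, by role), with bars for the 95% interval from the fit of all 9 libraries. Genes called lower are blue, genes called higher red and others grey: the 7 lower genes lie between -0.46 and -0.29, and the 3 higher ones between 0.40 and 0.64.

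Because the scaling of a library cancels between genes of that library, the subunits of a complex were also compared with each other. With sh#87 against NT, the log2 fold changes spread by 2.21 within GINS (GINS3 to GINS4), by 2.14 within polymerase alpha-primase (PRIM1 to POLA2), by 1.75 within RFC (RFC4 to RFC5), by 1.42 within polymerase epsilon and by 1.37 within RPA. The spread was 1.23 within polymerase delta, 1.10 within CAF-1, 0.77 within MCM2-7 and 0.26 within DDK, and the subunits of MCM2-7 and DDK all fell. With sh#16 against NT it was 1.41 within GINS, 1.37 within polymerase alpha-primase, 1.45 within RFC, 1.64 within RPA, 0.99 within polymerase delta, 0.92 within CAF-1, 0.73 within MCM2-7, 0.38 within polymerase epsilon and 0.13 within DDK. Between the shRNAs it was widest within polymerase epsilon (1.04), where POLE and POLE2 moved apart, and 0.80 within GINS. After the correction the order with sh#87 against NT turned, with 0.91 within MCM2-7 above 0.54 within CAF-1, 0.44 within polymerase epsilon and 0.36 within polymerase delta, and the spread within polymerase epsilon between the shRNAs was 0.76.

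Per kilobase of transcript, the levels in NT ranged from 4.68 ± 1.57 CPM per kilobase (SD, n = 3) for RPA3 to 116 ± 1.88 for PCNA, with the MCM genes, PRIM1, RFC1 and RFC4 among the highest. The MCM2-7 genes, whose proteins form a ring in equal numbers, ranged from 46.7 for MCM6 to 106 for MCM3 in NT, a ratio of 2.26, and from 22.2 to 83.2 with sh#87, a ratio of 3.75. MCM6 was the lowest and MCM3 the highest of them in each group. The GINS subunits lay within a ratio of 1.91 in NT and 5.44 with sh#87, GINS3 being the lowest in each group. In polymerase alpha-primase the reverse was seen, since PRIM1 was 5.59 times as high per kilobase as POLA2 in NT, while the highest and lowest subunits were 2.43 times apart with sh#16 and 1.75 times with sh#87. DBF4 and CDC7 stayed within a ratio of 1.26 in every group. RPA3 had the lowest level of its complex in each group, with a ratio to the highest subunit of 10.3 in NT, 3.56 with sh#16 and 5.24 with sh#87. All these ratios rest on 1 chosen transcript per gene, and those outside RPA change if the longest transcript is used. GINS3 and GINS2 then had 5.18 and 14.4 CPM per kilobase in NT, and GINS3 and GINS4 2.41 and 18.6 with sh#87. POLA2 and PRIM1 then had 9.79 and 45.3 in NT, and CDC7 and DBF4 8.31 and 10.8 with sh#87.

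**Figure D4:**
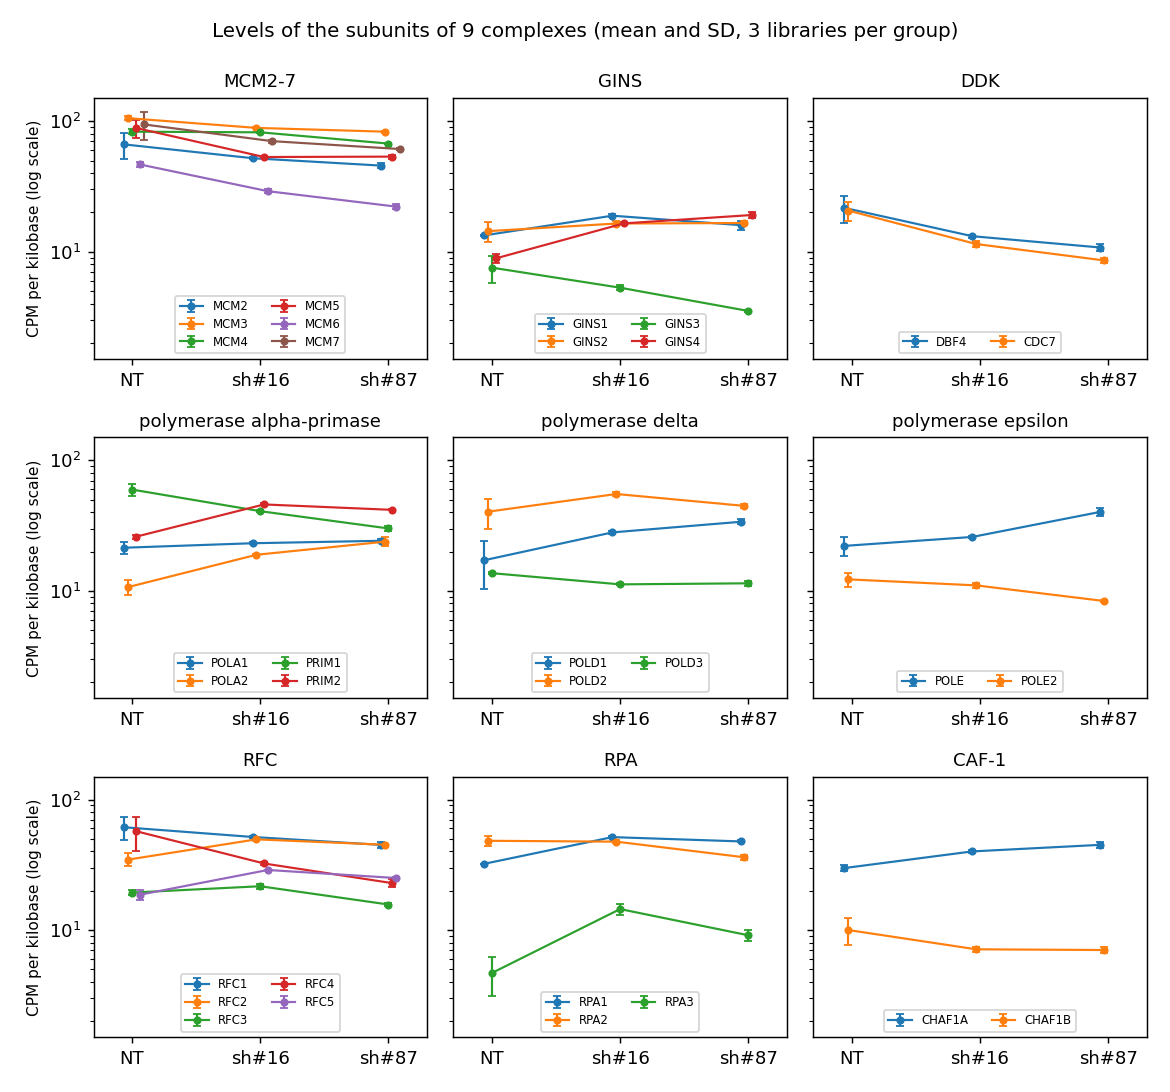
Mean CPM per kilobase of transcript (y axis, log scale) with the SD over 3 libraries, for the subunits of 9 complexes in the NT, sh#16 and sh#87 groups (x axis). GINS3 and GINS4, and POLE and POLE2, move apart from NT to sh#87, the polymerase alpha-primase subunits move together, and DBF4 and CDC7 fall side by side.

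Of 41 further replication genes outside the set, 14 were higher and 12 lower with sh#16 and 14 were higher and 14 lower with sh#87. Of all genes tested 29.8% were higher and 30.2% lower with sh#16 and 34.3% and 33.6% with sh#87, so these counts lie near the background. The 41 genes had median log2 fold changes of 0.18 and -0.011. The highest were ASF1B, a histone chaperone (2.22 and 2.27), and CHTF18, part of an alternative clamp loader (2.08 and 3.11), followed with sh#16 by POLD4, the small subunit of polymerase delta (1.31 and 0.85), and with sh#87 by TICRR, which helps CDC45 onto the helicase (1.02 and 1.15). Values in brackets are log2 fold changes against NT, with sh#16 before sh#87. The lowest were MCM9, an MCM relative with a role in repair (-1.61 and -1.83), and ORC2, a core subunit of ORC (-0.84 and -1.17), together with RNASEH2B, a subunit of the RNase that removes RNA from DNA (-1.02 and -0.82), and CHTF8, a partner of CHTF18 (-0.76 and -1.10). All of these passed the threshold without the length and GC correction, and corrected values are not given for them. Their GC content ran from 40.0% (ORC2) to 66.9% (CHTF18). Between the shRNAs 5 of the 41 were lower with sh#87, namely POLE4 (-0.98), DSCC1 (-0.59), TOP2A (-0.51), MCMBP (-0.48) and RBBP4 (-0.28), and DBF4B, a relative of DBF4, was higher (0.54). CHTF18 and ATAD5, the unloader of PCNA, had 1.03 and 0.40 and were not called (adjusted p = 0.0377 and 0.0138). MCMBP and RBBP4 are named here after their values were seen.

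Of the 19 genes of E2F factors, their partners and pocket proteins, which act on replication gene promoters, 5 were higher and 6 lower with sh#16, and 6 were higher and 7 lower with sh#87. These counts also lie near the shares of all genes given above. The values of single genes below are without the length and GC correction. Their GC content ran from 34.9% (LIN9) to 61.6% (E2F1). E2F1, an activating E2F, stood at 12.3, 22.1 and 36.8 CPM in the NT libraries, 45.1, 46.9 and 45.4 CPM with sh#16 and 56.3, 60.6 and 53.5 CPM with sh#87. It was called with sh#87 (1.25, adjusted p = 0.00438) and not with sh#16 (0.94, adjusted p = 0.0197), and the difference between the shRNAs did not pass (0.31, adjusted p = 0.459). E2F2, another activating E2F (0.92 and 1.12), E2F4, an E2F that works with pocket proteins (0.76 and 1.34), and LIN37, a subunit of the DREAM complex, rose with both (1.10 and 1.57). Among the lower genes were LIN9, another DREAM subunit (-1.79 and -2.23), E2F5, a repressive E2F (-1.21 and -1.57), and E2F8, an atypical E2F at 1.51, 1.65 and 0.967 CPM in NT and at most 0.254 CPM in a knockdown library. Between the shRNAs LIN37 was higher with sh#87 (0.47, adjusted p = 0.00615) and TFDP2, a partner of E2F proteins named after its values were seen, was lower (-0.28, adjusted p = 0.007). LIN9, E2F5, TFDP1 and E2F4 had -0.43, -0.36, -0.31 and 0.57 and were not called.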

How the data were processed

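HNT34 RNA-seq libraries (3 NT, 3 sh#16, 3 sh#87) were grouped by their titles. Estimated counts, which the authors deposited without normalization, came as 1 table of 16612 gene symbols and were all whole numbers. The header of this table names salmon output and is shifted left by 1 column, whereas the submitters' processing notes name STAR and GRCh38. How genes were chosen for it is not given in the sources used here. The members and lists were chosen with earlier results of these data known.

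Counts were TMM-normalized, filtered with filterByExpr and tested in 1 fit of 9 libraries with edgeR 4.0.16 in R 4.3.3 (quasi-likelihood test, Benjamini-Hochberg adjustment over 16312 genes, adjusted p of at most 0.01). Log2 fold changes have an SE and a 95% interval from this fit. The fit was tested on simulated counts with the same spread in all groups. That simulation cannot tell how the fit behaves under the unequal spread of these groups. Depth limits precision through counting error, which these intervals include. DESeq2 1.42.0, limma-voom (limma 3.58.1), RLE and upper-quartile scaling, other filters and thresholds, fits of 2 groups, a replicate block, removal of mitochondrial and small RNA genes and each library left out in turn were alternatives. Added after seeing the data were a weight per group of libraries, NT replicate 3 as the only NT library, and a loess correction of each library for transcript length and GC content (span 0.5, degree 1), for which 14019 genes (84.4%) had both on the GRCh37 reference (GENCODE), as did all 42 members. Levels per kilobase used the same transcripts. Motifs and sequences came from RefSeq promoters on GRCh38.p14. Figures used Python 3.11.15 and matplotlib 3.10.9.

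All 42 members were named. Values in every library were given for the lowest and highest gene between the shRNAs in each of 7 roles and the 3 lowest and 3 highest against NT, and were added for genes called between the shRNAs. Other genes named were MECOM and, from the lists of other replication genes and of E2F and pocket protein genes, the 3 lowest and 3 highest in a comparison. The same-numbered libraries did not deviate together (correlations of -0.14 to 0.083 over 9 pairs), so the numbers were not taken as pairs. Every pair of libraries within a group differed by more than sampling noise. Summed levels of the markers of other cell types are not reported here.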

Additional observations from a re-analysis of the deposited data

Results flagged for a closer look

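The effects of the EVI1 shRNAs under the same contrast with NT differed between sh#16 and sh#87 in the direct test (edgeR quasi-likelihood, adjusted p of at most 0.01) for the following genes, with log2 fold changes of sh#87 against sh#16. Of the replication genes, POLE (0.64), ORC6 (0.44) and CDC45 (0.40) were higher with sh#87, and RFC3 (-0.46), PRIM1 (-0.44), RPA2 (-0.40), MCM6 (-0.39), FEN1 (-0.37), PCNA (-0.31) and MCM4 (-0.29) were lower. Of the further replication genes, DBF4B (0.54) was higher, and POLE4 (-0.98), DSCC1 (-0.59), TOP2A (-0.51), MCMBP (-0.48) and RBBP4 (-0.28) were lower. LIN37 (0.47) was higher, and TFDP2 (-0.28) and MECOM itself (-0.43) were lower. The MECOM difference passed in 11 of 21 other fits. Groups of 3 libraries were not searched for outlying ones.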

How the results depend on the processing

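Against NT, 17 of the 23 calls with sh#16 and 19 of the 35 with sh#87 held in all 21 other fits, and 0 of the 10 calls between the shRNAs did. The counts of replication genes called against NT stayed within 1.5 times under the other tools, scalings and filters. With sh#16, 5 were lower with only the compared groups in the fit, where 26.9% of all genes were lower. At an adjusted p of at most 0.05, 13 replication genes were lower with sh#16, and the share of all genes at this threshold is not given here. With a log2 change of 1 or more also required, 0 were lower and 2 higher with sh#16, 5 and 3 with sh#87 and 0 and 0 between the shRNAs, and at least 2 left 0 and 0, 0 and 1, and 0 and 0. Without 1 library, 5 to 12 were lower and 13 to 19 higher with sh#16. Of all genes, 25.1% to 34.2% were then lower and 24.6% to 34% higher. With sh#87, 12 to 17 replication genes were lower and 13 to 19 higher, beside 29.3% to 36.4% and 30.1% to 37.5% of all genes. Between the shRNAs, 1 to 12 replication genes were lower and 0 to 5 higher in these fits. Between the shRNAs, 20 were lower and 8 higher with only these groups in the fit, 18 and 6 with a weight per group of libraries, 20 and 8 with NT replicates 1 and 2 left out together, and 12 lower at an adjusted p of at most 0.05, while 5 were higher after the length and GC correction, which also moved the median log2 fold change to -0.097. Of these fits, the one with only these groups does not contain the spread of the NT libraries, and the one with NT replicates 1 and 2 left out holds 1 NT library, assumed to vary like the other groups. With the replicate block, 2 were lower and 1 higher between the shRNAs, and of the E2F and pocket protein genes 0 were called, though the numbers do not pair the libraries. Of all genes, 5.24% were then lower and 4.5% higher between the shRNAs. The same shares were 23.2% and 22.1% with weights and 12.8% and 11.8% with DESeq2. The counts of further genes given next stand beside these shares and those in the Results.

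Between the shRNAs, the count of the 41 further replication genes called, 6 in the fit of 9 libraries, was 14 with DESeq2, 24 with only these groups, 21 with weights, 15 after the length and GC correction, 24 with NT replicates 1 and 2 left out, and 1 to 19 without 1 library. For the E2F and pocket protein genes it was 2, and 5, 13, 10, 6 and 13 in the same order, 1 with RLE and with upper-quartile scaling and 0 to 7 without 1 library.

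Directions turned as follows. With sh#16 against NT, MCM4 was 0.087 under upper-quartile scaling, 0.0033 with only the compared groups and 0.11 after the correction, and RPA2 was 0.082 under upper-quartile scaling, 0.035 after the correction and -0.10 to 0.023 without 1 library. After the correction POLD1 was -0.12, POLE -0.25, LIG1 -0.39, POLE2 0.071, RFC1 0.032 and UHRF1 -0.17, and with NT replicates 1 and 2 left out POLE2 was 0.056, RFC1 0.10 and UHRF1 -0.062, with UHRF1 at -0.017 to 0.15 without 1 library. With sh#87 against NT, the correction turned POLD2 to -0.28, POLD3 to 0.077, RFC3 to 0.14 and LIG1 to -0.30, and POLD2 was -0.15 with NT replicates 1 and 2 left out and -0.046 to 0.32 without 1 library. Between the shRNAs, values near 0 turned: after the correction MCM5 was -0.023, MCM10 0.030, PRIM2 0.0091 and CHAF1B 0.0076, and without 1 library MCM5 ran from -0.016 to 0.025, GINS2 from -0.0061 to 0.050, POLD3 from -0.0026 to 0.056 and CHAF1B from -0.053 to 0.028.

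The spread within complexes moved beyond the spread between libraries with the correction and with NT replicates 1 and 2 left out. With sh#16 against NT the correction gave 1.13 within MCM2-7, 0.14 within polymerase delta and 0.42 within CAF-1, and leaving out these NT libraries gave 1.64 within GINS, 0.26 within DDK, 0.76 within RFC, 1.30 within RPA and 0.55 within CAF-1. With sh#87 the correction gave 0.91 (MCM2-7), 1.68 (polymerase alpha-primase), 0.36 (polymerase delta), 0.44 (polymerase epsilon) and 0.54 (CAF-1), and leaving out these NT libraries gave 0.86 (MCM2-7), 2.44 (GINS), 0.39 (DDK), 0.98 (polymerase epsilon), 1.06 (RFC) and 0.74 (CAF-1). Between the shRNAs the correction gave 0.28 within MCM2-7, 0.45 within polymerase delta and 0.76 within polymerase epsilon. Except where the make-up of a fit shows it, the cause was not tested.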
